A study of Mus musculus with 60 samples.

Results

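Messenger RNA of 10 enzymes that make or break down ceramide and sphingomyelin was followed in the cortex of 30 inbred mouse strains given fluoxetine or plain water. The members were Smpd1, Smpd2, Smpd3, Asah1, Ugcg, Cers2, Sgms1, Sptlc1, Sptlc2 and Pla2g15, taken by symbol from 18193 genes that had a probe set of their own on the array. Each gene was read from the probe set annotated with it alone, and from the brightest where several existed. All 10 were found, and all 10 passed the filter for low signal (a log2 intensity of at least 4 in at least 6 arrays), as did 11886 genes in all. None of the 60 arrays had a member at the floor of the scale.

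The fluoxetine group received 18 mg/kg of the drug per day by mouth for 21 days, and the water group received 0 mg/kg. Both groups were males of the same 30 strains, labelled 10 to 11 weeks old. Each array carried cortical RNA pooled from 3 mice of a strain and treatment, so there were 30 fluoxetine and 30 water arrays and no array of a single animal. Inbred mice of a strain are genetically nearly identical, and the strains are related to each other by descent to different degrees. A p-value for treatment measures how the difference within a strain varied over strains, which mixes pools, handling and strain-specific response. The labels hold no scan dates, so a batch that took in both arrays of 1 strain cannot be told apart from the strain.

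Ceramide is the hub of sphingolipid metabolism. It is built in the endoplasmic reticulum from serine and a fatty acid, then receives a phosphocholine head to become sphingomyelin or a glucose to become the root of the gangliosides. Sphingomyelinases release ceramide again, and ceramidases cut it to sphingosine. In brain, sphingolipids are bulk lipids of myelin and of neuronal membranes. Fluoxetine, which blocks serotonin reuptake, is also a cationic amphiphilic drug that gathers in lysosomes and lowers the activity of acid sphingomyelinase, the product of Smpd1. That action is on the protein, and the arrays measured messenger RNA only.

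Smpd1 and Sptlc2 had the most repeatable strain differences of the 10 genes, so their promoters are shown, with every GC box (GGGCGG on either strand, a motif bound by Sp-family factors) in capitals. The sequences are RefSeq's for GRCm38.p6, a C57BL/6J genome, from 250 bases before the gene start to 50 after it. Letters of the other strains were not read here.
Smpd1, chr7:105554110-105554409, plus strand: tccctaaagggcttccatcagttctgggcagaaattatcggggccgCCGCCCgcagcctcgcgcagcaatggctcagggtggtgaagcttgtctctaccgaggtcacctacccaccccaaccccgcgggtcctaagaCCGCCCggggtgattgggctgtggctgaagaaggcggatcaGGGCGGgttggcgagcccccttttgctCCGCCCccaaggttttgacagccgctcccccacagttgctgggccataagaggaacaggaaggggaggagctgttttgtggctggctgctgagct
Sptlc2, chr12:87388306-87388605, minus strand: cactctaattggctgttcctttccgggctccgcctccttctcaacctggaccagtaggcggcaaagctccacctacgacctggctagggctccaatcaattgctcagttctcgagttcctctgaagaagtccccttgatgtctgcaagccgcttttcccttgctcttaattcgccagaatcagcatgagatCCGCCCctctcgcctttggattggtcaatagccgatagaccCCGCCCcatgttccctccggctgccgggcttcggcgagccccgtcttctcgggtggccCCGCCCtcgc
The 4 boxes of Smpd1 begin 204, 113, 72 and 45 bases before its start. Those of Sptlc2 begin 59 and 18 bases before its start and 40 bases after it. Windows were found for 8 members, 12 windows in all, and not for Smpd3 and Asah1. A GC box occurred in 9 of the 12 windows, against 35.7% of 32851 promoter windows of the same length. Each of the 8 genes had at least 1 window with a box. The palindromic E-box CACGTG lay in 2 of the 12 windows, of Cers2 and Smpd2, against 7.15% of all windows. A match of letters is a description and shows no binding.

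Arrays were alike in brightness, with a median intensity of 39.1 to 43.1. The P/J arrays stood apart: the median absolute difference between fluoxetine and water over all tested genes was 0.18 on the log2 scale in P/J, against a median of 0.092 over strains. DBA/2J (0.149) and BUB/BnJ (0.145) came next, followed by C57BR/cdJ (0.132) and C58/J (0.130). Marker genes of cell types were tracked as mean log2 levels of lists. The oligodendrocyte list (10 of 11 genes tested) ran from 9.07 through a median of 10.28 to 10.93 in fluoxetine arrays and from 9.80 through 10.43 to 10.90 in water arrays. Its mean difference was -0.20 (SD 0.35), lower with fluoxetine in 20 of 30 strains and in 10 of 10 genes, with 0 genes past the test. P/J had a difference of -0.85. SM/J (-0.96) and MRL/MpJ (-0.92) fell further, with all-gene differences of 0.094 and 0.092. The largest rise was 0.47, in NZB/BlNJ. Of the other lists, precursors differed by -0.067 (lower in 23 strains), astrocytes by 0.079 (higher in 25), microglia by 0.043 (higher in 18), neurons by 0.016 (higher in 18) and endothelium by -0.052 (lower in 21), with 0 genes past the test in each. No defining marker was near the floor, and the dimmest tested was Itgam at 6.16. In tissue, fewer cells of a type and less RNA per cell cannot be told apart.

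The first comparison asks whether chronic fluoxetine altered these transcripts across genetic backgrounds. No member passed the test: 5 were higher and 5 lower with fluoxetine, 0 of 10 had a limma adjusted p under 0.05, and the adjusted p ran from 0.303 to 0.827. Over all genes 0.0589% passed, 0.0168% higher and 0.0421% lower. A positive difference, past the test or not, occurred in 46.9% of all genes. Before adjustment only Smpd1, 1 of 10 members, had a p under 0.05, against 15.3% of all genes. The median difference of the members was 0.0039 on the log2 scale and that of all genes -0.0029, while the median absolute differences were 0.040 and 0.026. The 95% intervals of all 10 members, each taken singly and by the brightest probe set, lay within -0.16 and 0.11. For those probe sets the largest mean changes they allow are a fall of 10.4% and a rise of 8.16%. Dimmer probe sets can allow more: the second of Pla2g15 gave -0.10 with an SE of 0.088.

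**Figure D1:**
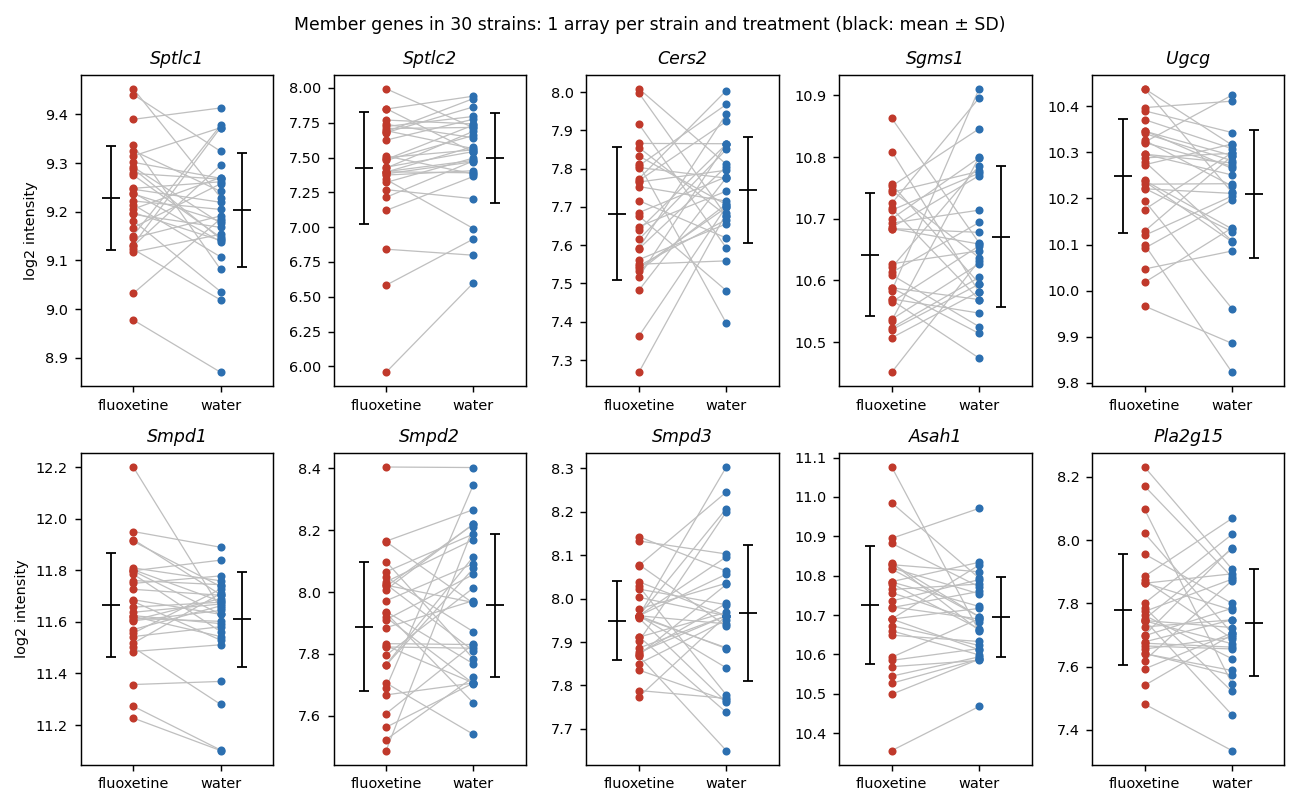
Log2 intensity of each member in the fluoxetine array (red, left) and water array (blue, right) of 30 strains, with grey lines joining both arrays of a strain and black bars for mean ± SD. The groups overlap almost fully in every panel, and single strains move in both directions.

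The lysosomal enzymes came closest to a difference through Smpd1, which encodes acid sphingomyelinase and whose loss causes Niemann-Pick disease types A and B in humans. Its log2 intensity in fluoxetine arrays ran from 11.23 in NZW/LacJ through a median of 11.65 to 12.20 in DBA/2J. In water arrays it ran from 11.10 in NZW/LacJ through 11.66 to 11.89 in C57BR/cdJ. The fluoxetine array of DBA/2J lay well above every water array, and the groups otherwise overlapped over most of their span. The mean was 11.67 ± 0.20 in fluoxetine arrays and 11.61 ± 0.18 in water arrays (SD, n = 30 each), and the difference was 0.056 (SE 0.026, 95% interval 0.0023 to 0.11). That is 3.93% more signal, and it did not pass adjustment (limma adjusted p = 0.303). Smpd1 was higher with fluoxetine in 18 strains and lower in 12, from -0.19 in MRL/MpJ to 0.55 in DBA/2J. The arrays of DBA/2J also differed widely over all genes, as given above, and without that strain the difference was 0.039 (limma adjusted p = 0.46).

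Asah1 encodes acid ceramidase, which splits ceramide in the lysosome and is deficient in Farber disease in humans. Fluoxetine arrays ran from 10.36 in SM/J through a median of 10.73 to 11.08 in P/J, and water arrays from 10.47 in SM/J through 10.69 to 10.97 in C57BR/cdJ. SM/J was lowest in both groups, and the groups overlapped over nearly all of their span. The difference was 0.029 (SE 0.021; limma adjusted p = 0.558), higher in 16 strains and lower in 14. P/J alone contributed 0.42, and without it the difference was 0.015 (limma adjusted p = 0.775). With the oligodendrocyte list as a covariate it was 0.013.

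Pla2g15 encodes a lysosomal phospholipase that can also attach an acyl chain to ceramide, and cationic amphiphilic drugs inhibit it as they do acid sphingomyelinase. Its values ran from 7.48 in NOR/LtJ through 7.75 to 8.23 in DBA/2J in fluoxetine arrays, and from 7.33 in NOR/LtJ through 7.71 to 8.07 in LG/J in water arrays. NOR/LtJ marked the low end of both groups. The difference of 0.041 (SE 0.036; limma adjusted p = 0.641) was positive in 17 strains and negative in 13. It rested partly on C58/J, whose arrays also differed widely over all genes: the strain had 0.55, and the difference was 0.023 without it. The gene's other probe set gave -0.10, so even the direction was not settled. With the oligodendrocyte covariate it was 0.012.

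The neutral sphingomyelinases work outside the lysosome. Smpd2, an enzyme of the endoplasmic reticulum and nucleus, ran from 7.49 through 7.91 to 8.40 in fluoxetine arrays and from 7.54 through 7.96 to 8.40 in water arrays. CE/J was highest in both groups. The difference was -0.069 (SE 0.044; limma adjusted p = 0.485), lower in 17 strains. P/J had the lowest fluoxetine value and a difference of -0.72, and without it the mean difference was -0.046. With the oligodendrocyte covariate it was -0.026. Smpd3, the neutral sphingomyelinase of the plasma membrane and Golgi that is involved in exosome release, differed least. It ran from 7.77 through 7.96 to 8.14 in fluoxetine arrays and from 7.65 through 7.96 to 8.30 in water arrays, with a difference of -0.017 (SE 0.027; limma adjusted p = 0.827). Differences were positive in 16 strains and negative in 14, with a median of 0.018, so mean and median differed in sign. The value 7.9605, the median of each group, recurred in several arrays. RIIIS/J, AKR/J and DBA/2J had it with fluoxetine, and LP/J, C58/J and SWR/J had it with water, among others. Without LG/J the mean difference was -0.0058, without I/LnJ -0.0073, without CE/J -0.0091, without C57BR/cdJ -0.011 and without 129S1/SvImJ -0.026.

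Among the enzymes of synthesis, both subunits of serine palmitoyltransferase, which starts the pathway, were measured. Sptlc2, a catalytic subunit, ran from 5.96 in FVB/NJ through 7.46 to 7.99 in P/J in fluoxetine arrays. In water arrays it ran from 6.60 in FVB/NJ through 7.55 to 7.94 in C57BR/cdJ. FVB/NJ was far below the bulk in both groups, which otherwise overlapped. The mean was 7.42 ± 0.40 in fluoxetine arrays and 7.50 ± 0.32 in water arrays. The difference of -0.073 (SE 0.037, 95% interval -0.15 to 0.0014) was negative in 20 of 30 strains and did not pass (limma adjusted p = 0.338). It was -0.64 in FVB/NJ and 0.35 in C57BLKS/J, and -0.054 without FVB/NJ. The second probe set of Sptlc2 gave 0.0055. Sptlc1, its partner subunit, ran from 8.98 through 9.23 to 9.45 in fluoxetine arrays and from 8.87 through 9.20 to 9.41 in water arrays. The difference was 0.025 (SE 0.022; limma adjusted p = 0.651), positive in 19 strains.

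Cers2 attaches very long acyl chains to make the ceramides of myelin. It ran from 7.27 in P/J through 7.68 to 8.01 in fluoxetine arrays and from 7.40 through 7.73 to 8.004 in water arrays. The difference was -0.061 (SE 0.039; limma adjusted p = 0.485), lower in 19 strains, with extremes of -0.42 in P/J and 0.42 in BTBRT T(+) tf/J. It was -0.012 with the oligodendrocyte list as a covariate. Sgms1, the sphingomyelin synthase of the Golgi, ran from 10.45 through 10.62 to 10.86 in fluoxetine arrays and from 10.47 through 10.65 to 10.91 in water arrays. Its difference was -0.028 (SE 0.024; limma adjusted p = 0.622), negative in 18 strains. It was -0.018 without NZW/LacJ, and the gene's other probe sets gave -0.0028, -0.059 and 0.050. Ugcg, which adds glucose to ceramide, ran from 9.97 through 10.28 to 10.44 in fluoxetine arrays and from 9.82 through 10.24 to 10.42 in water arrays. The difference was 0.039 (SE 0.021; limma adjusted p = 0.373), positive in 19 strains. The ranges of both groups overlapped for Cers2, Sgms1 and Ugcg alike. With the oligodendrocyte covariate the difference of Sptlc2 was more negative, at -0.095, and that of Ugcg was 0.042. The part of the oligodendrocyte markers in the differences of Cers2, Smpd2, Asah1, Pla2g15, Sptlc2 and Ugcg was not tested beyond these covariate values.

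**Figure D2:**
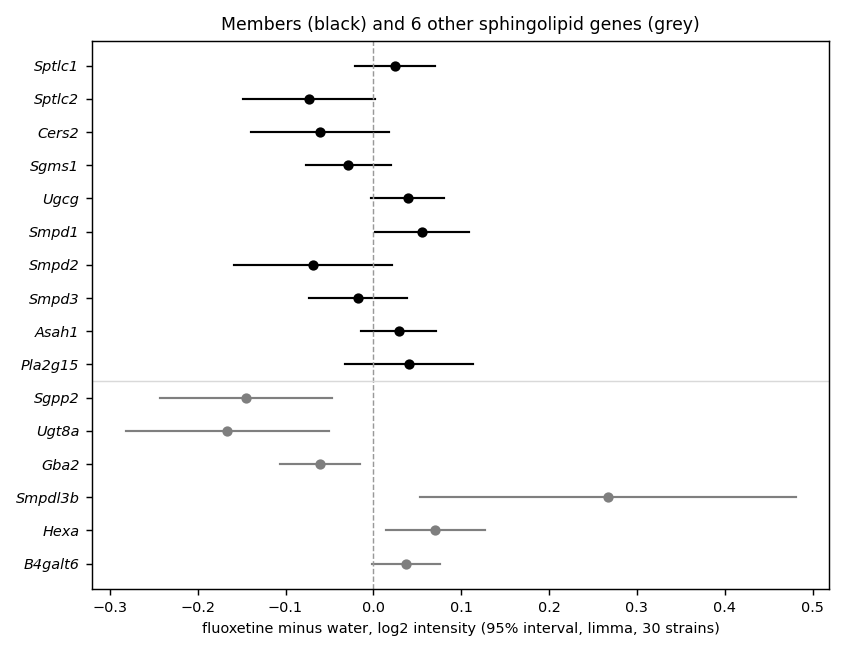
Fluoxetine minus water in log2 intensity with 95% limma intervals over 30 strains, for the 10 members (black) and 6 other sphingolipid genes (grey). The members' points lie between -0.073 and 0.056, and the interval of Smpd1 is the only black one that leaves out 0 before adjustment.

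The next comparison asks how far the members differ between strains, whatever the treatment. The F-test of the strain terms passed for 8 of 10 members (80% of them, against 88.3% of all genes), and Cers2 and Sgms1 did not pass. The span between the lowest and the highest strain mean had a median of 0.50 on the log2 scale for the members and 0.68 for all genes. The intraclass correlation, which nears 1 where strains differ and a strain's own arrays agree, had a median of 0.39 for the members and 0.59 for all genes. A strain mean here joins 1 fluoxetine and 1 water array. Under 2 other scalings of the arrays the count was 5, without Smpd2, Smpd3 and Pla2g15.

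Sptlc2 differed between strains the most of the 10. FVB/NJ had 5.96 in its fluoxetine array and 6.60 in its water array. SWR/J had 6.58 with fluoxetine and 6.91 with water, and NOD/LtJ had 6.84 with fluoxetine and 6.80 with water. All other strain means were at 7.17 or above, up to 7.89 in C57BR/cdJ, so that C57BR/cdJ and FVB/NJ stood 3.07-fold apart in signal. The step between FVB/NJ and SWR/J was 0.47, against a standard error of a strain mean of 0.10. The strain test gave a limma adjusted p of 1.87e-09 and the intraclass correlation was 0.84, higher than in 89.1% of genes. FVB/NJ, SWR/J and NOD/LtJ descend from Swiss mice. SJL/J, also of Swiss descent, had 7.85 with fluoxetine and 7.54 with water, and NOR/LtJ, a close relative of NOD/LtJ, had 7.50 with fluoxetine and 7.56 with water.

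Smpd1 followed. NZW/LacJ had 11.23 with fluoxetine and 11.10 with water, and SWR/J had 11.27 with fluoxetine and 11.10 with water. NOD/LtJ came next with a strain mean of 11.36 and then 129S1/SvImJ with 11.39. At the high end stood C57BR/cdJ at 11.92 and DBA/2J at 11.93. DBA/2J reached that mean through its fluoxetine array, at 12.20, beside 11.65 in its water array. The span was 0.76, or 1.70-fold, with a limma adjusted p of 3.52e-06 and an intraclass correlation of 0.72. Steps between neighbouring strains exceeded the standard error of a single strain mean (0.072) at 3 places. The largest step was 0.17, between SWR/J and NOD/LtJ. No pair of neighbours was tested for a difference, so the order of neighbours is a description only.

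Ugcg and Asah1 also passed in every fit tried. For Ugcg, CE/J had 9.97 with fluoxetine and 9.89 with water, while I/LnJ had 10.40 with fluoxetine and 10.41 with water. The span was 0.48 (limma adjusted p = 8.24e-05, intraclass correlation 0.65). For Asah1, SM/J had 10.36 with fluoxetine and 10.47 with water, and C57BR/cdJ had 10.89 with fluoxetine and 10.97 with water. The span was 0.52, or 1.44-fold (limma adjusted p = 0.000283, intraclass correlation 0.61). The step between SM/J and the next strain, FVB/NJ, was 0.13 against a standard error of 0.057.

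**Figure D3:**
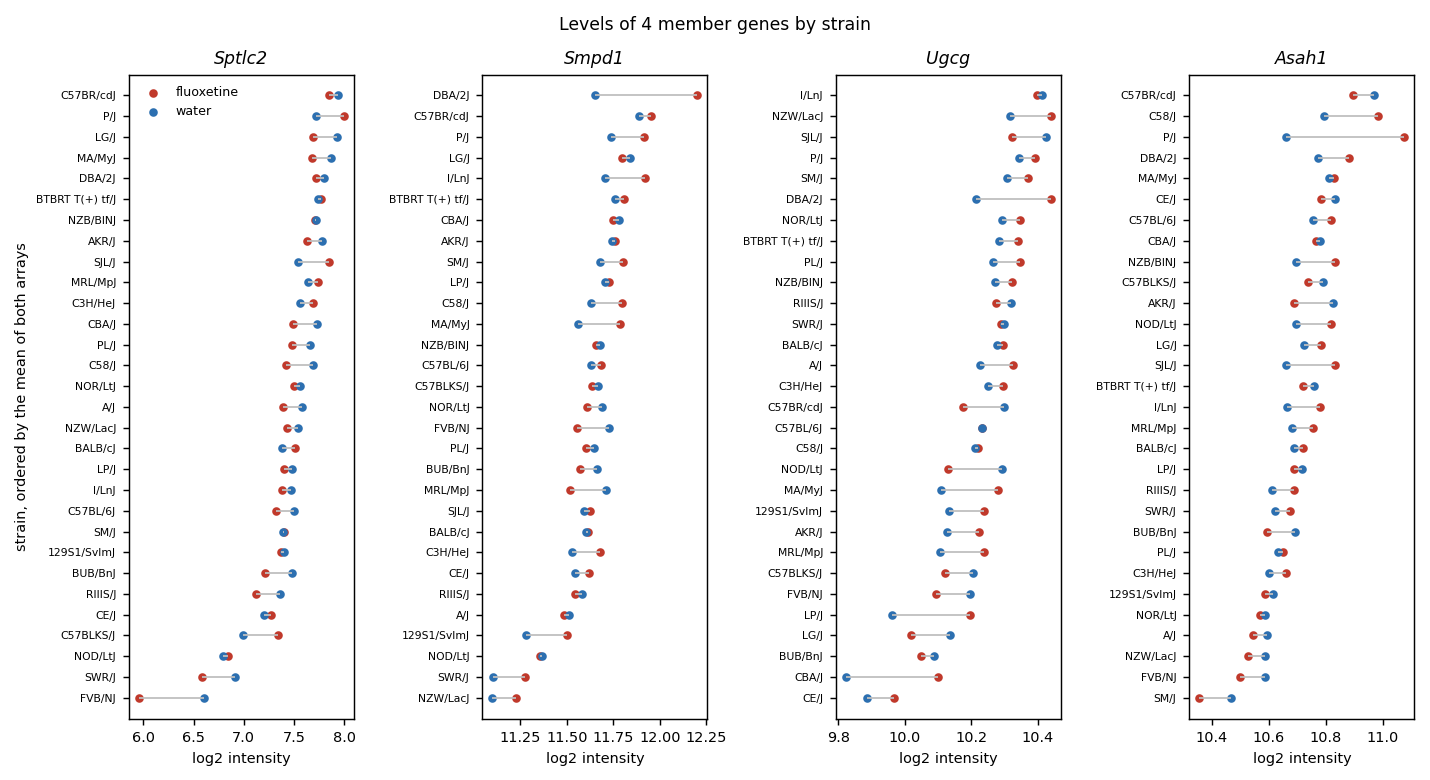
Log2 intensity of Sptlc2, Smpd1, Ugcg and Asah1 in the fluoxetine (red) and water (blue) array of each of 30 strains, ordered by the mean of both. FVB/NJ, SWR/J and NOD/LtJ lie apart at the low end of Sptlc2, and DBA/2J has the widest gap between its arrays for Smpd1.

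The remaining calls were closer to the threshold. Sptlc1 ran from 8.92 in 129S1/SvImJ to 9.40 in AKR/J (limma adjusted p = 0.0120), and the call was lost without 129S1/SvImJ (adjusted p = 0.115). Smpd2 ran from 7.62 in BALB/cJ to 8.40 in CE/J (limma adjusted p = 0.0151), and lost its call without CE/J (0.0774). Pla2g15 ran from 7.41 in NOR/LtJ to 8.07 in DBA/2J (limma adjusted p = 0.0259) and lost its call without NOR/LtJ (0.0952) or DBA/2J (0.0521). Smpd3 ran from 7.76 in A/J to 8.16 in PL/J (limma adjusted p = 0.0484) and lost its call in 14 of 30 fits that left out a strain. By its brightest probe set Sgms1 had the narrowest span, 0.29 from C57BLKS/J to CE/J, narrower than that of all but 3.81% of genes (limma adjusted p = 0.0829). It passed without C3H/HeJ, NZW/LacJ or P/J. Among single probe sets, the Sgms1 probe set with a treatment difference of -0.059 passed for strain (limma adjusted p = 0.00229). Its span was 0.70 and its intraclass correlation 0.49. The brightest did not pass in that fit (limma adjusted p = 0.0964), nor did the remaining Sgms1 probe sets above the filter (0.138 and 0.694). Cers2 spanned 0.43 from P/J to SWR/J, but its intraclass correlation was 0.043, lower than in all but 1.55% of genes (limma adjusted p = 0.356).

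A probe set reads only the stretch of transcript its probes match, so the members' other probe sets were compared. The probes' sequences were not read here, and whether the strains differ in sequence under them was not tested, so a span between strains is one of signal. The 10 genes had 25 probe sets, of which 20 passed the filter. Smpd2, Asah1 and Cers2 had only 1. For Sptlc2, strain means from both probe sets above the filter correlated at 0.58 over 30 strains, and the second again put SWR/J (6.57) and FVB/NJ (6.89) lowest, in the other order, and BTBRT T(+) tf/J highest at 7.56. NOD/LtJ, at 7.03 there, lay above C58/J (6.99) and C57BL/6J (7.01), which the brightest probe set had at 7.56 and 7.41. The strain test of the second Sptlc2 probe set gave a limma adjusted p of 9.4e-05. In that probe set the value 7.3117 recurred in several arrays, both arrays of BALB/cJ among them. Tests of single probe sets came from a fit of all 25783 probe sets above the filter, of which 85.5% passed for strain. For Sptlc1 the probe sets disagreed. The second ran from 7.83 in LG/J to 9.49 in SM/J, a span of 1.66, repeated between treatments (r = 0.83; limma adjusted p = 1.63e-07), yet correlated with the brightest at -0.14. SM/J had 9.47 there with fluoxetine and 9.51 with water, and LG/J had 7.97 with fluoxetine and 7.69 with water. For Ugcg the other probe sets above the filter correlated with the brightest at -0.0073 and -0.19. Those of Smpd3 correlated with it at 0.61 and -0.055, the second of Pla2g15 at 0.39, and those of Sgms1 at 0.46, 0.24 and 0.027. The strain orders given above for Sptlc1 and Ugcg are those of the brightest probe set and differ from those of the others.

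**Figure D4:**
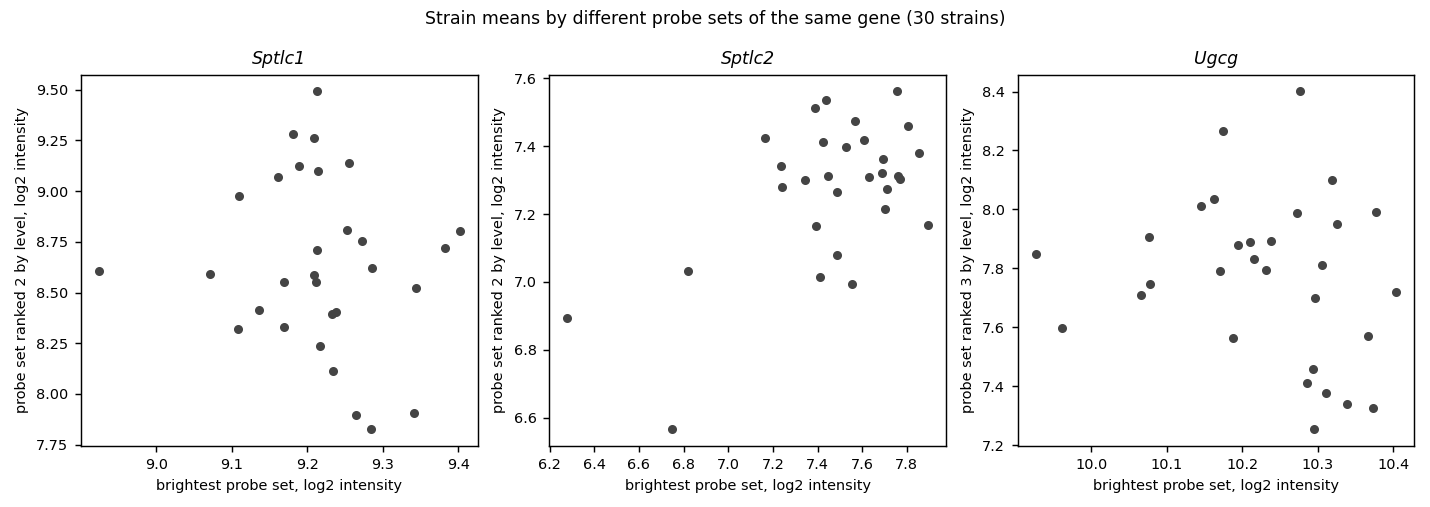
Strain means in log2 intensity of the brightest probe set (horizontal) against another probe set (vertical) of Sptlc1, Sptlc2 and Ugcg, 1 point per strain. SWR/J and FVB/NJ are lowest in both probe sets of Sptlc2 (r = 0.58 over strains), while the correlations are -0.14 for Sptlc1 and -0.19 for Ugcg.

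Members were then compared with each other over strains. Of 110 relations computed (pairs of members, and members with the oligodendrocyte list, each for strain means and for differences), 1 passed adjustment in Pearson's r. The strain means of Asah1 and Pla2g15, both lysosomal and both on chromosome 8, correlated at r = 0.681 (permutation p = 7e-05, adjusted p = 0.0077) and rho = 0.706 (permutation p = 4e-05, adjusted p = 0.0044). Without the 2 strains farthest from the median of Asah1, r was 0.686. With each array centred on its median, r was 0.597 and the adjusted p 0.0528, and with the mean of all probe sets r was 0.433 and the adjusted p 0.211, so the call held for neither. Smpd3, also on chromosome 8, had r = -0.164 with Asah1 and 0.107 with Pla2g15. Smpd1, also lysosomal, had r = 0.469 with Asah1 and 0.525 with Pla2g15 (permutation adjusted p = 0.104 and 0.0607). The part of chromosome or compartment was not tested. In rho alone, 3 more pairs passed: Smpd1 with Sptlc2 (rho = 0.614, permutation adjusted p = 0.022; r = 0.519, adjusted p = 0.0748), Sptlc1 with Pla2g15 (rho = 0.587, adjusted p = 0.0308; r = 0.522, adjusted p = 0.0607) and Sptlc2 with Pla2g15 (rho = 0.557, adjusted p = 0.0446; r = 0.428, adjusted p = 0.13). Once a gene's probe sets were averaged, r was 0.551 for Smpd1 with Sptlc2, but -0.0097 for Sptlc1 with Pla2g15 and 0.167 for Sptlc2 with Pla2g15. Pairs of members were mixed in sign: 26 of 45 pairs, or 57.8%, correlated positively over strain means, against 56.3% of pairs in a regular sample of the tested genes.

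**Figure D5:**
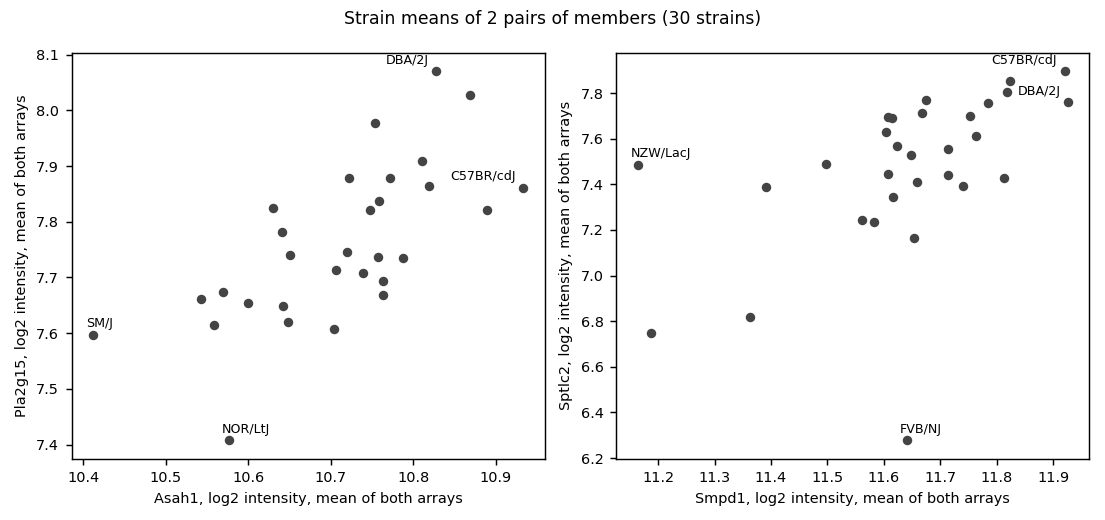
Strain means in log2 intensity, 1 point per strain, of Asah1 against Pla2g15 (left) and Smpd1 against Sptlc2 (right), with the strains at the ends of each axis named. SM/J and NOR/LtJ lie at the low end on the left, and FVB/NJ and NZW/LacJ lie off the trend on the right.

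For the within-strain differences 0 of 45 pairs passed. The strongest was Smpd1 with Pla2g15 at r = 0.524 (permutation p = 0.0029, adjusted p = 0.0607) and rho = 0.456, and r was 0.417 without the 2 farthest strains. With the oligodendrocyte list, 0 of 20 relations passed. Over strain means, 8 of 10 members correlated negatively with it, Pla2g15 most (r = -0.526, permutation adjusted p = 0.0607; -0.304 without the 2 farthest strains) and then Smpd1 (r = -0.445, permutation adjusted p = 0.128; -0.323 without the 2 farthest strains). Cers2 correlated positively, at 0.384 over strain means and 0.386 over differences (permutation adjusted p = 0.166 each), and at 0.183 and 0.295 without the 2 farthest strains. Over differences, 5 of 10 members correlated negatively with the list. The share of all tested genes that correlated negatively with it was not computed for either count. Both values of a point come from the same 2 arrays, and the strains share ancestry.

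The wider pathway was read from 57 further sphingolipid genes in 9 groups, of which 47 were tested. Sptlc3, Cers3, Smpd5, Acer1 and S1pr2 fell under the filter, and the other 5 were not analysed here. With fluoxetine 22 were higher and 25 lower, and 0 passed (smallest limma adjusted p 0.142). Before adjustment 8 had p under 0.05, 2 of them higher and 6 lower, against 7.3% and 8% of all genes. Their median difference was -0.0019. Strain terms passed for 42 of the 47, or 89.4%, against 88.3% of all genes.

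The groups were mixed in direction with exceptions at each end. All 5 genes of the galactolipids of myelin were lower, with a median of -0.090, beside the oligodendrocyte list at -0.20, whose part in this was not tested. Ugt8a, which makes galactosylceramide, averaged 10.36 ± 0.47 in fluoxetine arrays and 10.53 ± 0.32 in water arrays (difference -0.17, SE 0.057, limma adjusted p = 0.154), lower in 21 of 30 strains. The group of sphingomyelin breakdown left out the member sphingomyelinases, of which Smpd1 was higher (0.056) and Smpd2 (-0.069) and Smpd3 (-0.017) lower. Whether the products of Smpdl3a and Smpdl3b, listed in this group, break down sphingomyelin was not tested. All 3 tested genes of the group were higher, among them Smpd4 (0.042) and Smpdl3a (0.018), with a median of 0.042. Smpdl3b among them lay near the floor, at 3.13 ± 0.98 in fluoxetine arrays and 2.86 ± 0.70 in water arrays (difference 0.27, SE 0.10, limma adjusted p = 0.207). Synthesis had 4 of 9 higher, transfer and sphingomyelin synthesis 1 of 3, ceramide breakdown 2 of 3, sphingosine phosphate 4 of 8, ceramide phosphate 0 of 1, gangliosides and glucosylceramide 5 of 10, and lysosomal helpers 3 of 5. Of all tested genes, 46.9% were higher. None of these counts of groups came with a gene past the test.

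Of single genes, Sgpp2, a phosphatase of sphingosine phosphate, averaged 9.08 ± 0.46 in fluoxetine arrays and 9.23 ± 0.33 in water arrays (difference -0.14, SE 0.048, limma adjusted p = 0.142), lower in 20 strains. Gba2, the glucosylceramidase outside the lysosome, differed by -0.060 (SE 0.022, limma adjusted p = 0.183), lower in 20 strains. Hexa, the alpha subunit of beta-hexosaminidase, which degrades ganglioside, differed by 0.070 (SE 0.028, limma adjusted p = 0.206), higher in 19. B4galt6, a lactosylceramide synthase, differed by 0.037 (SE 0.019, limma adjusted p = 0.344), higher in 21. None of the 4 passed.

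The 3 genes most like each member over the 30 strain means were ranked by Pearson's r among 11885 others, as a description with no test. Asah1 ran closest to Atp6ap2 (0.842), Bmpr2 (0.806) and Tubb5 (0.788), and Pla2g15 to Slc16a9 (0.782), Akap13 (0.779) and Rtn4rl2 (0.778). Smpd1 was most like Ttbk1 (0.770), Larp1b (0.747) and Pygb (0.735). Smpd2 ran with Zfp637 (0.819), Pdss2 (0.813) and Krba1 (0.799), and Pdss2 lies on chromosome 10 as Smpd2 does. Smpd3 ran with Dab2ip (0.705), Sptbn4 (0.698) and Pam (0.693). Sptlc1 was close to Lonp1 (0.837), Sdhd (0.834) and Bsg (0.822). Sptlc2 ran with Emc1 (0.735), Fgf1 (0.721) and Arhgap44 (0.709), but rho with Fgf1 was only 0.229. Cers2 ran with Smndc1 (0.767), Rock1 (0.760) and Taf1d (0.751), Sgms1 with Slc16a12 (0.660), Ing3 (0.658) and Zfp667 (0.645), and Ugcg with Eprs (0.773), Syvn1 (0.674) and Rnf4 (0.654). Only 2 of these 30 genes, Pdss2 and Slc16a12, share a chromosome with their member.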

How the data were processed

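The authors deposited linear intensities for each probe set, computed with GCRMA (no version given in the sources used here) per the submitters' processing notes. This method corrects background, normalizes between arrays and summarizes probes, which compresses low values. Values were taken to log2 without a pseudocount. The floor, 2.07, was shared by 26.0% to 27.9% of probe sets per array. Of 45101 probe sets, 64 were controls and left out, 34945 had 1 gene name, 932 several and 9160 none in the platform annotation. No genome build was named for the arrays, so coordinates are those of the promoter table only. Entrez numbers of 18032 of the 18193 genes were in the mouse gene table, and 0 symbols changed.

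Fluoxetine and water were compared with limma 3.58.1 (lmFit and eBayes, R 4.3.3), blocked on strain, with Benjamini-Hochberg control at 0.05 over all 11886 genes, two-sided. Single probe sets were fitted in the same way over 25783 probe sets. The strain label gave the pairing: in 30 of 30 strains the fluoxetine array was closest to the water array of its own strain, with correlations of deviations from the group means of 0.519 to 0.855. The strain F-test came from the same fit. Correlations used 100000 permutations, two-sided (numpy 2.4.6). Code was tested on simulated data.

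All 10 members are named; of other sphingolipid genes, those past the treatment test and the 3 with the smallest p in each direction; and the 3 genes most like each member. Members and lists were chosen with earlier results of these data known. Alternatives covered block, filter, scaling, probe sets, an oligodendrocyte covariate, an intensity trend and each strain left out.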

Additional observations from a re-analysis of the deposited data

How the results depend on the processing

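The count of members past the treatment test was 0 in all 39 fits, 8 of them alternatives and 30 with a strain left out, and the smallest adjusted p of a member in any of them was 0.2148. Without the strain block (no replicate block) 0 members and 0 genes passed, against 7 genes with it, and the block changed no call of a member. Over all genes the count of 7 was 1 with no filter on low values, 8 with a stricter filter, 8 with median-centred arrays, 7 with quantile normalization, 9 with an intensity trend, 0 with a gene's probe sets averaged and 0 with the oligodendrocyte covariate. Without C57BLKS/J or C58/J it was 0, and without RIIIS/J 21. The count of members past the strain test, 8, was 5 with median-centred arrays, 5 with quantile normalization, 6 with the oligodendrocyte covariate, 7 with a gene's probe sets averaged and 7 with no filter, and lay between 6 and 9 when a strain was left out; the cause was not tested. Smpd3 kept its strain call in 1 of 7 alternatives that kept all strains, by its second probe set, and Pla2g15 in 1 of 6, with no filter. Smpd1, Asah1, Ugcg and Sptlc2 passed in every fit of the strain test. The treatment difference turned in sign in 4 cases, none past the test: Sgms1 by its dimmest probe set above the filter (0.050), Sptlc2 by its second (0.0055), Pla2g15 by its second (-0.10) and Pla2g15 by the mean of all probe sets (-0.031). In the dimmest Sgms1 probe set above the filter, both arrays of RIIIS/J, C58/J and I/LnJ had the same value, 6.2401. Fits of single probe sets were chosen after seeing the data. Other sphingolipid genes past the test, and relations with the oligodendrocyte list past adjustment, were 0 under every alternative run. Pools of 3 mice and 1 array per strain and treatment leave a response of any single strain without a replicate.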
